A study of Mus musculus with 6 samples.

Results

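MicroRNAs and small nucleolar RNAs (snoRNAs) are short non-coding RNAs that a gene expression array reads through probe sets of their own. On the arrays described here a probe set, or transcript cluster, stands for 1 gene or locus, and 727 of 41345 probe sets carried a microRNA or snoRNA name. They were taken by a rule on the symbol that uses no measured value, though it was chosen with earlier results of these data known. It gave 586 probe sets whose symbol starts with Mir and a digit or with Mirlet, and 141 whose symbol starts with Snord (95), Snora (37) or Scarna (9). The microRNA probe sets held 526 symbols, and the snoRNA probe sets held 106. Mir17hg, the long host transcript of a microRNA cluster, is caught by the naming rule and is the only microRNA-named probe set whose RefSeq entry is a long non-coding RNA.

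The study measured mouse oviductal epithelial (MOE) cells in culture, a model of the fallopian tube epithelium. The control line was transfected with an empty pCMV-Neo vector (3 arrays) and the other line with a plasmid for p53 R273H, a missense mutant of the p53 tumour suppressor (3 arrays). Both lines were grown out under antibiotic selection after clonogenic isolation, and how many clones stand behind each is not stated in the labels. Both were grown with serum, epithelial growth factor, insulin, transferrin, selenite and β-estradiol, and the labels state neither the mouse strain nor the passage numbers. RNA came from consecutive passages, so the 3 arrays of a group are passages of 1 line, p-values measure the spread between passages, and the plasmid and the line cannot be told apart.

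All values are the authors' deposited log2 expression values. The array medians over all 41345 probe sets lay between 4.51 and 4.58, and no array stood apart. Groups were compared with limma over all probe sets, with Benjamini-Hochberg adjustment, and a probe set is called higher or lower in the p53 R273H line where its adjusted p was under 0.05. Of all probe sets 14.7% were called, 6.98% higher and 7.75% lower. With 3 arrays against 3, the smallest p that an exact permutation test allows is 0.1, and the number of arrays limits the precision. The mouse Trp53 probe set read 10.06 ± 0.07 (SD, n = 3) in the control line and 9.39 ± 0.10 (SD, n = 3) in the other line (adjusted p = 0.00625 by limma), and the labels do not say whether its probes bind the RNA of the plasmid. Of 11 oviductal epithelium markers 5 were lower (Krt19 -2.50, Wt1 -1.93, Ovgp1 -1.28, Krt8 -1.19 and Foxj1 -0.88), 2 were higher (Esr1 3.61 and Krt7 1.80) and 4 did not pass, which is 63.6% called. Among those that did not pass, Pax8 (10.2 and 10.5) and Krt18 (11.02 and 11.28) were bright in both lines, while Epcam (4.05 and 4.03) was below the median level of all probe sets, 4.53, and Cdh1 (5.04 and 5.23) was near it. Of 4 fibroblast markers 3 were higher and 1 lower, and Dcn read 3.32 with the empty vector and 8.02 with p53 R273H. The leukocyte markers Ptprc and Cd52 were below the median level in both lines. Of these, Ptprc was higher (3.50 and 4.10) and Cd52 did not pass. The part of these marker differences in the results was not tested.

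SnoRNAs guide the chemical modification of ribosomal RNA in the nucleolus. C/D box snoRNAs (Snord) direct 2′-O-methylation with the methyltransferase fibrillarin, H/ACA box snoRNAs (Snora) direct pseudouridylation with dyskerin, and the related scaRNAs (Scarna) guide the modification of spliceosomal RNAs in Cajal bodies. In mammals most are cut out of introns of host genes, many of which encode ribosomal proteins or nucleolar factors. MicroRNAs are cut from hairpin precursors by Drosha and then Dicer, and the mature strand, loaded into an Argonaute protein, pairs with messenger RNAs mainly through its seed, bases 2 to 8. The wild-type p53 protein is known to raise the transcription of the miR-34 family and to aid the processing of other microRNAs.

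Mature sequences of microRNAs whose probe sets passed the test are shown here because the seed decides which messages a microRNA can pair with. They are from RefSeq on GRCm38.p6, 5′ to 3′, with the seed in capitals.
mmu-miR-5133: gCUGGAGCugcggcagcgcag
mmu-miR-5123: uGUAGAUCcauaugccauggugug
mmu-miR-330-3p: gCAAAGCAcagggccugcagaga
mmu-miR-330-5p: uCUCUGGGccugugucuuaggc
mmu-miR-1898: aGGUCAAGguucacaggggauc
mmu-miR-677-5p: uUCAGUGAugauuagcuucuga
mmu-miR-665-3p: aCCAGGAGgcugaggucccu
mmu-miR-185-3p: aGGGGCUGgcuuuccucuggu
mmu-miR-365-3p: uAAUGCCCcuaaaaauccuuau
mmu-miR-106b-5p: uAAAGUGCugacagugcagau
mmu-miR-496a-3p: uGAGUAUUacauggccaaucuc
mmu-miR-3095-3p: uGGACACUggagagagagcuuuu
mmu-miR-3097-5p: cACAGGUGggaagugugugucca
The first 7 belong to probe sets that were lower with p53 R273H and the other 6 to probe sets that were higher. No 2 probe sets that passed the test share a seed among the mature sequences matched. The seed of miR-106b-5p, at chr5:138165787-138165807 (minus strand), is also that of miR-17, miR-20a, miR-20b and miR-93, whose probe sets differed by -0.15 to 0.39 on the log2 scale and did not pass. The seed of miR-365-3p, at chr16:13453895-13453916 (plus strand), is shared with Mir365-2, which read -0.46 and did not pass. The seed of miR-330-5p, at chr7:19181486-19181507 (plus strand), is shared with Mir326 (0.15, not passed). MiR-5133 lies at chr9:62122565-62122585 (minus strand) and miR-3097-5p at chr5:35021050-35021072 (plus strand).

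SnoRNAs were lower in the p53 R273H line as a class. Of 141 probe sets, 74 (52.5%) were lower and none was higher by limma, against 7.75% and 6.98% of all probe sets, and the other 67 did not pass. At an unadjusted p under 0.05 the number was 97. The groups did not overlap, with every p53 R273H array below every empty vector array, in 96 of 141 against 15.8% of all probe sets. The log2 difference was below 0 in 132 of 141, against 48.9% of all probe sets. A fall of at least 2-fold was called in 51 snoRNA probe sets, against 2.82% of all probe sets, and 15 of these were at least 4-fold. Their median log2 difference was -0.53, against 0.01 over all probe sets. In cultured cells measured in bulk, fewer cells of a type and less RNA per cell cannot be told apart.

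SnoRNA probe sets were bright, and probe sets above the median level were called more often in general (26.2%). Of the 141, 102 lay above the median level of all probe sets, and 72 of these were lower (70.6%, against 13.5% of all probe sets above that level). The 31 probe sets named Snord116 held only 2 distinct value profiles at a level of about 3.85 and did not pass. Snord116 is an imprinted, tandem C/D box snoRNA best known from neurons, and its copies share sequence. Without them, 74 of 110 were lower (67.3%), with a median of -0.89. With identical profiles counted once, 73 of 111 were lower. The median over those 111 profiles was 8.36, 8.29 and 8.28 on the 3 empty vector arrays and 7.21, 7.02 and 7.11 on the 3 p53 R273H arrays, and the groups did not overlap. Over the same arrays the microRNA median stayed between 3.15 and 3.24.

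**Figure D1:**
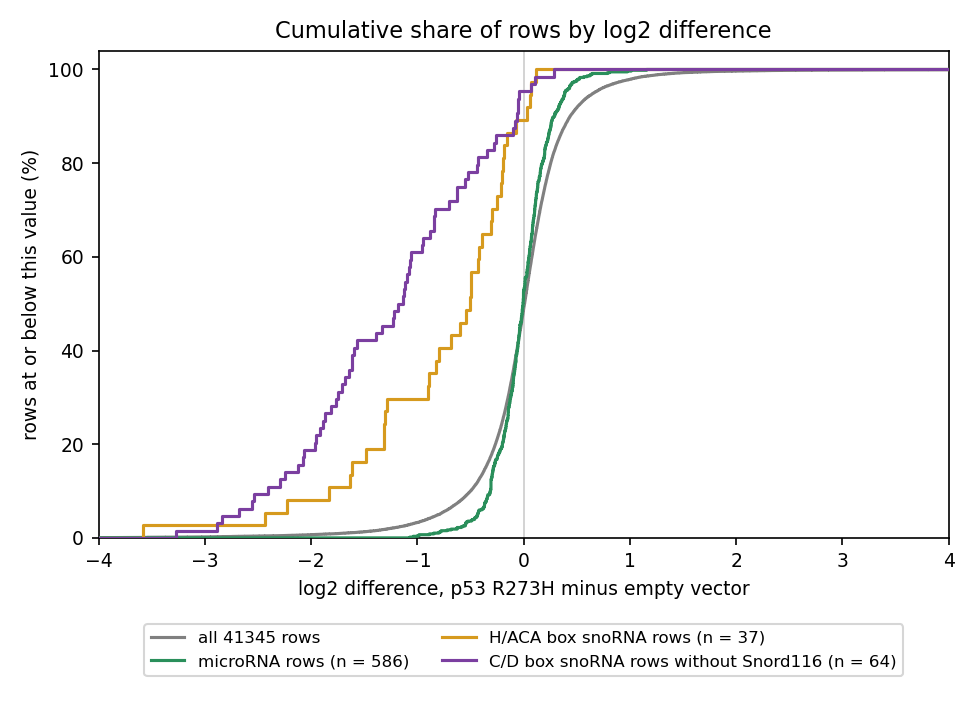
Cumulative share of probe sets (vertical axis, percent) by log2 difference, p53 R273H minus empty vector (horizontal axis), for all 41345 probe sets, 586 microRNA probe sets, 37 H/ACA box and 64 C/D box snoRNA probe sets without Snord116. The C/D box curve (median -1.16) and the H/ACA box curve (median -0.51) lie to the left of the curve of all probe sets, and the microRNA curve (median -0.01) lies close to it.

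The 3 families are given apart, and the difference between them was not tested. Among C/D box probe sets other than Snord116, 49 of 64 were lower (76.6%), with a median log2 difference of -1.16, and 39 fell at least 2-fold. Among H/ACA box probe sets 22 of 37 were lower (59.5%), with a median of -0.51. Among scaRNA probe sets 3 of 9 were lower (33.3%), with a median of -0.14, and these were Scarna6 (-1.39) and both Scarna17 probe sets (-0.83 and -0.79). The median of 66 distinct C/D box profiles was 8.53, 8.48 and 8.61 with the empty vector and 7.26, 7.06 and 7.10 with p53 R273H. The median of 36 distinct H/ACA box profiles was 8.03, 7.85 and 7.81 with the empty vector and 7.18, 7.02 and 7.18 with p53 R273H. In both families every p53 R273H array was below every empty vector array.

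The steepest fall was that of Snora34, an H/ACA box snoRNA. It read 10.377, 10.196 and 10.187 with the empty vector and 6.329, 6.692 and 6.999 with p53 R273H, a 11.96-fold fall (log2 difference -3.58, SE 0.18, adjusted p = 6.57e-05 by limma). Snord69 read 10.16, 10.05 and 10.19 with the empty vector and 7.14, 6.57 and 6.87 with p53 R273H, a 9.67-fold fall (log2 difference -3.27, SE 0.16). Snord72 read 8.81, 8.84 and 8.63 with the empty vector and 5.62, 5.71 and 6.30 with p53 R273H (log2 difference -2.88, SE 0.20). All 3 moved from among the bright probe sets of the array to a middle level, and the gap between the groups was several times the spread within either. Snord22 (U22), which is needed for the processing of 18S ribosomal RNA in Xenopus, read 10.96, 10.86 and 11.09 against 8.10, 8.01 and 8.28 (log2 difference -2.84, SE 0.12). Snord1b fell by 2.68 on the log2 scale, and the 2 probe sets of its neighbour Snord1c fell by 2.56 and 2.54. Snora15 fell by 2.44, Snord89 by 2.41, Snord99 by 2.30, Snord58b by 2.25 and Snora62 by 2.23, all on the log2 scale, with adjusted p-values by limma between 4.35e-05 and 0.000781.

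**Figure D2:**
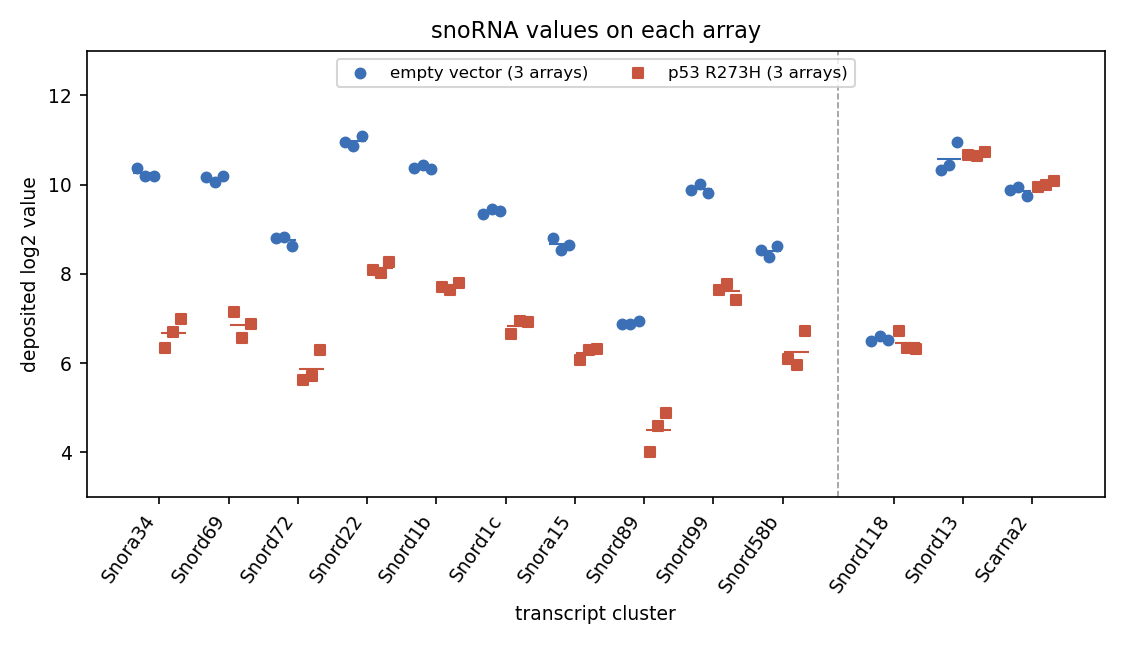
Deposited log2 value (vertical axis) on each of 3 empty vector arrays (circles) and 3 p53 R273H arrays (squares), with group means as bars, for the 10 snoRNA symbols with the largest falls and, right of the dashed line, for Snord118, Snord13 and Scarna2. In the 10 on the left the group means differ by 2.25 or more on the log2 scale, and in the 3 on the right they overlap.

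The brightest snoRNAs had smaller log2 differences. The brighter Snora33 probe set read 13.117, 13.149 and 13.091 with the empty vector and 12.503, 12.472 and 12.328 with p53 R273H (log2 difference -0.68), while the dimmer Snora33 probe set fell by 1.32. Snord32a (12.6 against 11.5), Snord49b (11.6 against 10.5) and Snord87 (11.84 against 10.995) fell by 1.12, 1.10 and 0.85 on the log2 scale. Snord82 read 11.93, 11.96 and 12.20 against 11.32, 11.31 and 11.81, with no overlap, and did not pass (adjusted p = 0.0809 by limma). The probe sets of Snora17 also disagreed in sign, at -0.08 and 0.06, and neither passed.

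Some snoRNAs well above the median level read alike in both lines. Snord13 (U13), which guides an acetylation of 18S ribosomal RNA, read 10.33, 10.45 and 10.96 with the empty vector and 10.67, 10.64 and 10.74 with p53 R273H (log2 difference 0.10, SE 0.18). Snord118 (U8), which acts in the processing of the large subunit ribosomal RNAs, differed by -0.08 (SE 0.14). Scarna2 read 9.89, 9.95 and 9.73 against 9.95, 9.99 and 10.09 (log2 difference 0.15, SE 0.10). In all 3 the groups overlapped. In mammals these 3 are known to be transcribed from promoters of their own, no RefSeq gene spans them, and they were chosen after their values were seen. Snord89, which has no spanning gene either, fell by 2.41 on the log2 scale. Of the 9 probe sets above 0, the highest was Snord123, which read 5.78, 5.76 and 5.65 against 6.07, 6.03 and 5.96 and did not pass (log2 difference 0.29, adjusted p = 0.103 by limma). Snora3 (0.07), one Snora17 probe set (0.06), Snora35 (0.11), Snord96a (0.07) and Scarna13 (0.15) also read near 0.

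Neighbouring snoRNAs are given by genomic cluster. Within 10 kb of each other, 42 snoRNA symbols formed 18 genomic clusters. Every cluster had at least 1 probe set called lower, 12 had at least 2, and 11 had all of theirs. Of all snoRNA probe sets other than Snord116, 67.3% were lower, and at that share many clusters hold several lower members without any tie between neighbours. Whether neighbours moved together beyond that share was not tested. The introns of Rpl13a hold Snord35a, Snord34, Snord33 and Snord32a, known in mouse cells as mediators of the response to lipid stress. With their neighbour Snord35b they were lower in 5 of 5, by -1.62 (Snord35a), -1.59 (Snord35b), -1.12 (Snord32a), -0.83 (Snord34) and -0.63 (Snord33). Snord49a (-1.91), Snord65 (-1.68) and Snord49b (-1.10) were all lower. So were Snord15a (-1.96) and Snord15b (-1.39), Snord110 (-1.74) and Snord57 (-1.23), Snord83b (-1.96) and Snord43 (-1.64), and Snord38a (-1.62) and Snord55 (-0.96). Of the 4 snoRNAs in Snhg12, Snord99 (-2.30), Snora44 (-1.61) and Snora16a (-1.31) were lower, while Snora61 read 9.204, 9.176 and 9.247 against 8.914, 8.961 and 8.996 (-0.25) and did not pass. Snora73a (-0.39) and Snora73b (-0.54), the U17 RNAs that act in ribosomal RNA cleavage, passed, and each lost the call under 8 alternative settings. Snord88a (-1.06) and Snord88c (-0.88) were lower too. In 6 further clusters 1 probe set was lower and its neighbour did not pass. Snora75 (-1.48) lay beside Snord82 (-0.55), Snord92 (-1.82) beside Snord53 (-0.53), and Snord42b (-1.71) beside Snord4a (-0.34). Snord95 (-1.07) lay beside Snord96a (0.07), Snord2 (-0.43) beside Snora81 (-0.21), and Snora43 (-0.90) beside the 2 Snora17 probe sets.

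Most host genes of snoRNAs did not pass the test. RefSeq genes with a probe set of their own spanned 94 distinct snoRNA profiles in 71 host genes. Of the 71 host genes 10 were lower, 4 were higher and 57 did not pass, so 19.7% were called against 14.7% of all probe sets and 26.2% of those above the median level. Host probe sets were matched by symbol, the brightest was taken, and it may lie at another locus. Of the 71 hosts 22 had several probe sets, which differed in call for 3. The median log2 difference was -0.10 over the hosts and -0.95 over the snoRNAs of these pairs, and the log2 difference of the snoRNA was below that of its host in 82 of 94 pairs. Of the 48 hosts whose snoRNAs were called lower, 9 were lower, 1 was higher and 38 did not pass. The number of hosts called lower rose from 10 to 22 with trended and robust variances, and to 18 and 19 when dim probe sets were left out. Across the 94 pairs Pearson's r was 0.29 and Spearman's rho 0.24, given without a test because pairs share hosts and arrays.

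Snord22 lies in Snhg1, a non-coding host gene, which read 8.56 ± 0.10 (SD, n = 3) in control arrays and 8.59 ± 0.16 (SD, n = 3) with p53 R273H while Snord22 fell 7.16-fold. Snora62 lies in Rpsa, a small subunit ribosomal protein gene, whose 2 probe sets differed by 0.04 and 0.04 on the log2 scale and did not pass, while Snora62 fell 4.68-fold. Snora15 lies in Cct6a, a chaperonin subunit gene, which read 10.59 and 10.89 (log2 difference 0.30, not passed). Snord16a (-2.08) lies in Rpl4 (-0.23, not passed), and Snord70 (-2.07) and Snord11 (-1.34) lie in Nop58 (-0.02, not passed), which itself encodes a core C/D box protein. In these pairs the snoRNA lies within the host gene, and only the snoRNA passed. Snord49a, Snord49b and Snord65 went the other way from 2410006H16Rik, the gene that spans them, which was higher (9.41 and 9.90, adjusted p = 0.02 by limma) and lost the call under 5 alternative settings.

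The steepest falls were in hosts that also fell, by less. Kansl2, which spans Snora34 and Snora2b (-1.64), read 9.20 ± 0.08 (SD, n = 3) and 8.31 ± 0.23 (SD, n = 3), a difference of -0.90. Gnl3 (nucleostemin), which spans Snord69 and Snord19 (-1.77), read 9.97 and 9.29, a difference of -0.68. Rpl37, which spans Snord72, read 8.27 and 6.90, a difference of -1.38. All 3 hosts passed. Kansl2 and Rpl37 are on chromosome 15 and Gnl3 on chromosome 14, and the other probe sets above the median level there had median differences of -0.40 and -0.26. The part of these chromosome-wide differences in the snoRNA falls was not tested. At least 1 snoRNA was lower on 18 of the 20 chromosomes that held snoRNA probe sets, including chromosome 5, where the median of the other probe sets was 0.48 and Snora15 fell.

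**Figure D3:**
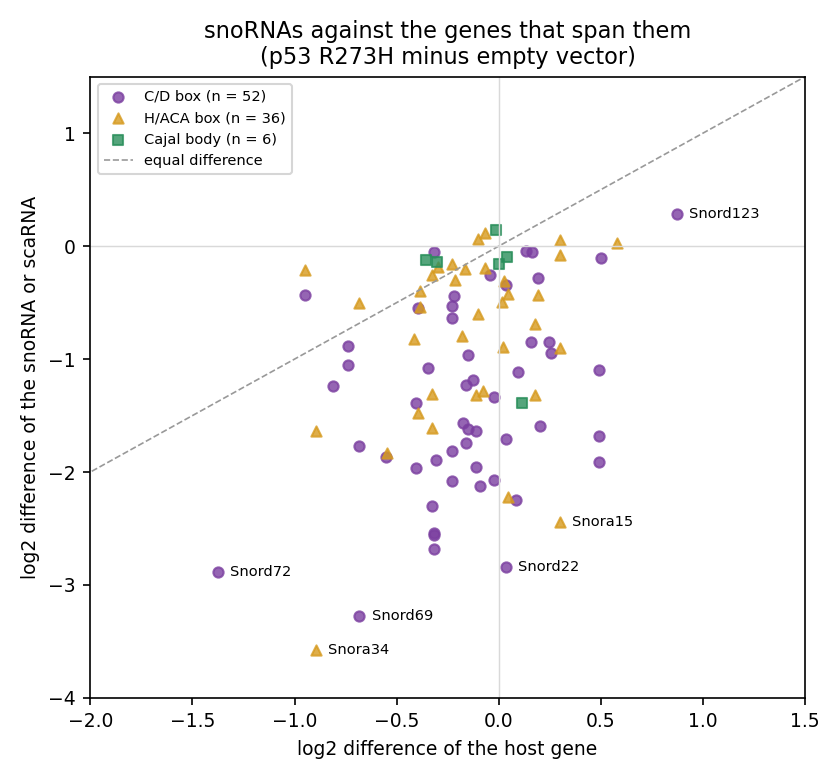
Log2 difference (p53 R273H minus empty vector) of 94 snoRNA or scaRNA profiles (vertical axis) against that of the gene that spans each (horizontal axis), with the dashed line marking equal differences. Most points lie below the line, with host differences near 0 (median -0.10) and snoRNA differences down to -3.58.

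In mammals a host gene and its intronic snoRNAs are copied from the same promoter, so the promoters of 3 hosts named here are shown, from RefSeq on GRCm38.p6, 250 bases before to 50 after the gene's start. Many snoRNA host genes in mammals begin with a run of pyrimidines. The letters CTTTC, in capitals, were searched anywhere in the window, on the gene strand only. A match need not lie at the start of the gene, and a pyrimidine start with other letters is not counted. The letters occurred in 33 of 63 matched snoRNA host promoters (52.4%) and in 10236 of 27025 promoters of all genes (37.9%).
Snhg1 promoter: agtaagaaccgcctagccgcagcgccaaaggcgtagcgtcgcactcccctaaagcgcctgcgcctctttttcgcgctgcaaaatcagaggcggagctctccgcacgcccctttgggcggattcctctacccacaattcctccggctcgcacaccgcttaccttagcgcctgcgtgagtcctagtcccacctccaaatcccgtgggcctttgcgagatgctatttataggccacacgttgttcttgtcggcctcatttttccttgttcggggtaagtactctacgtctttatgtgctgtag
Snhg12 promoter: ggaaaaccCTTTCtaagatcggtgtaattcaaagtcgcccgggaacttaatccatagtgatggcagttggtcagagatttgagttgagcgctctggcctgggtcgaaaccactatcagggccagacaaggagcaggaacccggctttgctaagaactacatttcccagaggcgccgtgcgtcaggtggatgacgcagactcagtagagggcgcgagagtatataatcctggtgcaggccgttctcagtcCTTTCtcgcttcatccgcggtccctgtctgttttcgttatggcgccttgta
Kansl2 promoter: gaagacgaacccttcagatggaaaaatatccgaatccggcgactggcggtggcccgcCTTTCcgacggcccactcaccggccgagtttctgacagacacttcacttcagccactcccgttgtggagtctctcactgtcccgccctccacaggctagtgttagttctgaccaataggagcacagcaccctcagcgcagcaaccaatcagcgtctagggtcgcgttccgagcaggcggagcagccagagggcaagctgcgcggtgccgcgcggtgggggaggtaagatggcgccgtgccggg
The Snhg1 window is chr19:8723237-8723536 (plus strand), the Snhg12 window chr4:132308428-132308727 (plus strand) and the Kansl2 window chr15:98534220-98534519 (minus strand). The Snhg12 window held 2 matches, Kansl2 held 1, and Snhg1 held 0. The window of Gnl3, which is not shown, also held 0.

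The length of the RNA and the level of other short RNAs are given because the labels name spin columns for the RNA, whose standard protocol favours longer RNAs. Over the 102 snoRNA profiles above the median level, RefSeq lengths ran from 48 to 275 nucleotides. The median log2 difference was -1.11 at up to 70 nucleotides (37 profiles, 28 lower) and -1.06 at 71 to 100 (27 profiles, 19 lower). It was -0.80 above 100 and up to 140 (27 profiles, 17 lower) and -0.82 at 141 to 300 (11 profiles, 8 lower). Across these profiles Pearson's r between length and difference was 0.21 and Spearman's rho 0.23, and within the C/D box profiles r was 0.11.

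Other short structured RNAs, some of them snoRNA genes outside the naming rule, were chosen after the snoRNA values were seen, and they split. The 5S ribosomal RNA probe set Rn5s20 (121 nucleotides) read 9.86, 9.88 and 9.91 with the empty vector and 8.55, 8.30 and 7.84 with p53 R273H, and it was lower (log2 difference -1.65). The Y RNAs, cytoplasmic RNAs bound by Ro60, were lower, Rny1 by -0.87 and Rny3 by -0.91. The minor spliceosomal RNA Rnu11 differed by -0.50 and was lower. Rnu73b (71 nucleotides, -0.99) and Rnu3a (-0.58), U73 and U3 snoRNA genes outside the naming rule, were lower too. The U3 probe set Rnu3b1 differed by -0.13 and did not pass. Rnu1b1, a U1 spliceosomal RNA (165 nucleotides), was higher, at 8.85, 8.84 and 8.85 against 9.35, 9.25 and 9.23 (log2 difference 0.43, adjusted p = 0.0232 by limma). The longer RNAs Rn7sk (-0.06 and -0.11), Rmrp (-0.26) and Terc (-0.04) did not pass, and Rpph1, the RNA of RNase P, was lower by -0.43. The part of short RNA recovery in the snoRNA falls was not tested.

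**Figure D4:**
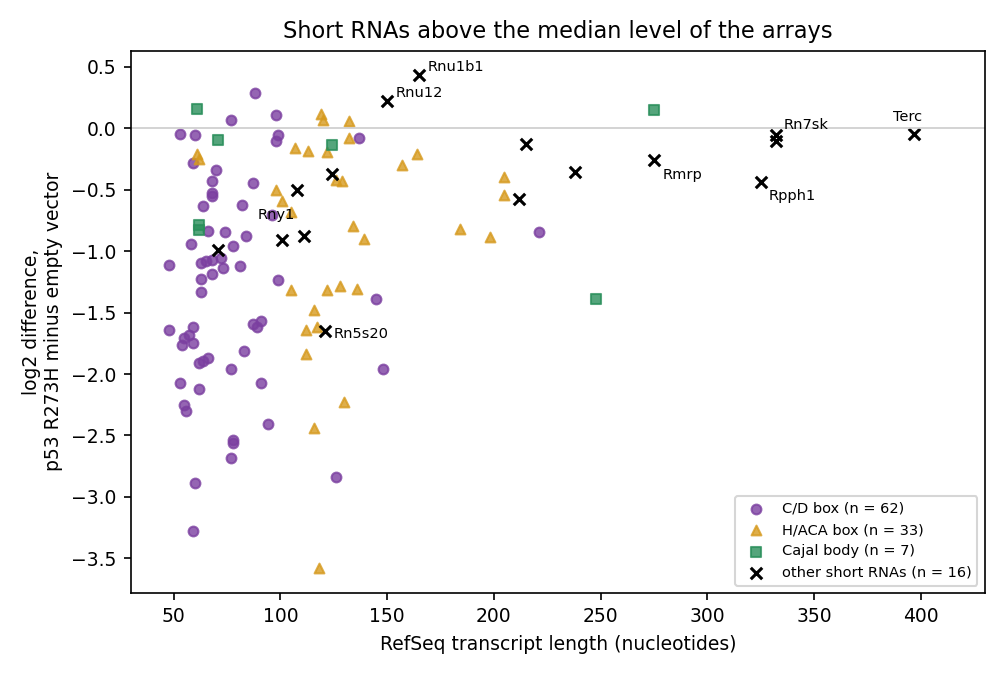
Log2 difference (p53 R273H minus empty vector, vertical axis) against RefSeq transcript length in nucleotides (horizontal axis) for 62 C/D box, 33 H/ACA box and 7 scaRNA profiles and for 16 other short RNA probe sets (crosses), all above the median level of the arrays. The crosses include the snoRNA genes Rnu3a, Rnu3b1, Rnu73b and Gm12238, which fall outside the naming rule. SnoRNAs of every length class reach well below 0, while Rnu1b1 (0.43) and Rnu12 (0.22) lie above 0 and Rn7sk and Terc lie near it.

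Several genes for the proteins that assemble with snoRNAs were lower. Of 23 measured genes of a list of snoRNP and scaRNP genes, 9 were lower, 1 was higher and 13 did not pass (43.5% called, against 14.7% of all probe sets and 26.2% of those above the median level, where all 23 lay). Fbl (fibrillarin), the C/D box methyltransferase, read 9.87 ± 0.03 (SD, n = 3) in control arrays and 9.25 ± 0.07 (SD, n = 3) with p53 R273H, a difference of -0.62. Nhp2l1 (Snu13), which binds the C/D motif and was the brightest gene of the list, differed by -0.65. Its dimmer probe set differed by -0.22 and did not pass, and where a gene had several probe sets the brightest was counted. Dkc1 (dyskerin), the H/ACA pseudouridine synthase, differed by -0.45 and Shq1, its chaperone, by -0.44. Of the assembly factors, Rpap3 (-1.01), a chaperone adaptor, and Nufip1 (-0.66), which brings C/D box proteins together, were lower. Tgs1 (-0.53), Smn1 (-0.60) and Rrp9 (-0.47) were lower too. Znhit6, a C/D box assembly factor, was higher (0.53). The core proteins Nop56 (-0.16), Nop58 (-0.02), Nhp2 (-0.03), Gar1 (-0.17) and Nop10 (0.11) did not pass. The dimmer Nop56 probe sets, at -0.16 and -0.66, did not pass either. Without empty vector array 2, without empty vector array 3 or without p53 R273H array 2, the number lower was 4, and without empty vector array 1 or 2 none was higher. Rpap3 is on chromosome 15, Nufip1 on chromosome 14 and Dkc1 on the X chromosome. The other probe sets above the median level there had median differences of -0.40, -0.26 and -0.29. The part of the assembly genes in the snoRNA falls was not tested.

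MicroRNA probe sets changed seldom. Of 586, 9 were higher and 14 lower, 3.92% called against 14.7% of all probe sets, and 563 did not pass. At an unadjusted p under 0.05 the number was 81. Their median log2 difference was -0.01, and 1 of those called fell and 2 rose at least 2-fold (background 2.82% and 1.96%). The class was dim, with a median level of 3.18 against 4.53 for all probe sets. Of 136 microRNA probe sets above that level, 9 were lower and 3 higher (background 13.5% and 12.7%), and of the 450 below it 11 were called. Whichever array was left out, both counts fell, and so did those of all probe sets. The number higher was 5, 5 and 3 without empty vector array 1, 2 or 3. It was 6, 8 and 4 without p53 R273H array 1, 2 or 3. The number lower was 9, 7 and 11 without empty vector array 1, 2 or 3. It was 12, 9 and 11 without p53 R273H array 1, 2 or 3. The labels do not say whether the probes read the precursor or the mature strand.

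**Figure D5:**
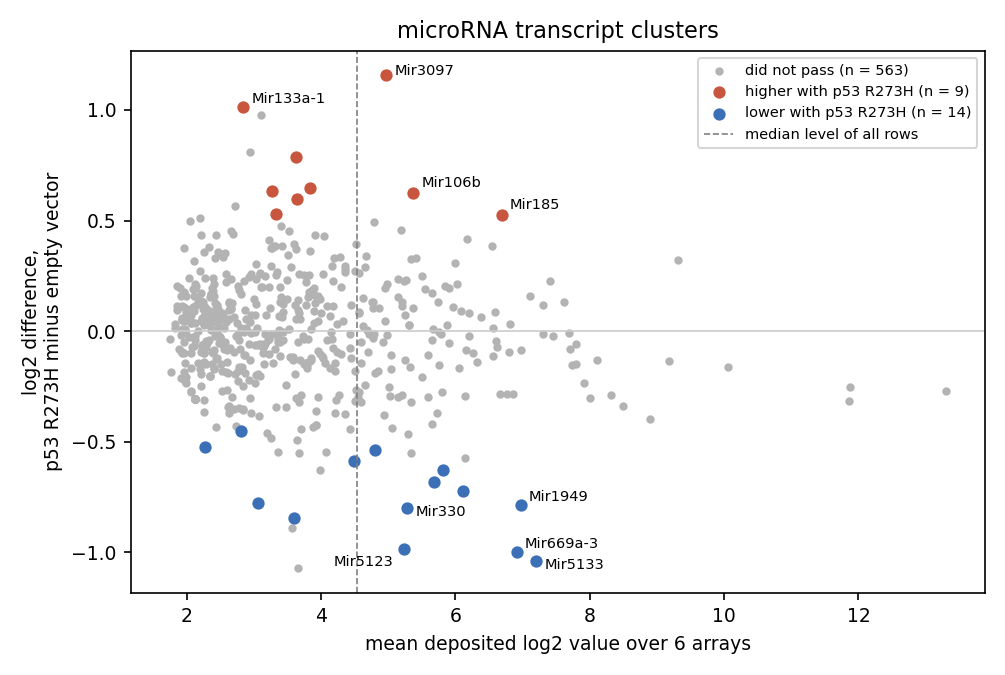
Log2 difference (p53 R273H minus empty vector, vertical axis) against mean deposited log2 value over 6 arrays (horizontal axis) for 586 microRNA probe sets, with the 9 that were higher and the 14 that were lower in colour and the median level of all probe sets, 4.53, as a dashed line. Most points lie left of the line and near 0, and the largest differences are -1.04 (Mir5133) and 1.16 (Mir3097) among those that passed.

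Among microRNA probe sets that were lower, Mir5133 read 7.96, 7.62 and 7.58 with the empty vector and 6.63, 6.68 and 6.74 with p53 R273H, a 2.06-fold fall (log2 difference -1.04, SE 0.13, adjusted p = 0.00262 by limma). It lies in Glce, an enzyme gene of heparan sulfate synthesis, which fell by 1.35. Mir669a-3, 1 of the repeated microRNAs in the Sfmbt2 locus of mice, read 7.51, 7.30 and 7.41 against 6.30, 6.64 and 6.29 (log2 difference -0.997). The other 19 distinct profiles of its genomic cluster did not pass. Mir5123 read 5.555, 6.003 and 5.630 against 4.762, 4.990 and 4.483 (-0.98), and its host B4galt1 differed by -0.45 (adjusted p = 0.0508 by limma). In these 3 the groups did not overlap. Mir330 in Eml2 (-0.80), Mir1949 (-0.79), Mir1898 in Zfr (-0.72), Mir1199 (-0.68), Mir677 in Atp5b (-0.63), Mir1983 (-0.85) and Mir467e (-0.78) were lower. The hosts Eml2 (-0.37), Zfr (-0.29) and Atp5b (-0.02) did not pass. Mir1898 and Zfr are on chromosome 15, where the other probe sets above the median level had a median difference of -0.40. Mir17hg, the host transcript of the miR-17-92 cluster, was lower (4.79 and 4.197, a difference of -0.59), and it lost the call under 7 alternative settings. The measured members of that cluster, Mir17 (-0.13), Mir18 (-0.44), Mir19a (-0.37) and Mir20a (-0.15), did not pass. They are on chromosome 14, where the median of the other probe sets above the median level was -0.26. The part of these chromosome-wide differences was not tested. Mir665 (-0.54), Mir1904 (-0.52) and Mir101c (-0.45) made up the rest of those lower.

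Among those higher, Mir3097 read 4.403, 4.245 and 4.525 with the empty vector and 5.552, 5.576 and 5.513 with p53 R273H, a 2.23-fold rise (log2 difference 1.16, SE 0.11, adjusted p = 0.000824 by limma). Its host Rgs12, a regulator of G protein signalling, rose by 1.07. Both are on chromosome 5, where the median of the other probe sets above the median level was 0.48, and its part in these rises was not tested. Mir3095 (0.79) lies in Lpar1, a lysophosphatidic acid receptor gene, which rose by 1.10. Mir133a-1, a precursor of the muscle microRNA miR-133a, read 2.31, 2.31 and 2.38 against 3.43, 3.41 and 3.19, a difference of 1.01 between 2 levels that are both below the median of all probe sets. Mir106b read 5.16, 5.14 and 4.87 against 5.86, 5.48 and 5.70 (0.62). It lies in Mcm7, a replication helicase gene, which differed by -0.10 and did not pass, and its cluster neighbours Mir93 (0.39) and Mir25 (0.31) did not pass. Mir106b is on chromosome 5, where the median of the other probe sets above the median level was 0.48, and it lost the call under 7 alternative settings. Mir185 (0.53), Mir337 (0.53), Mir365-1 (0.60), Mir496 (0.63) and Mir1907 (0.65) were also higher. Of these, only Mir185, at 6.42 and 6.95, lay above the median level.

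Few genomic clusters of microRNAs held a probe set that was called. Within 10 kb of each other, 211 microRNA symbols formed 59 clusters, of which 7 had at least 1 probe set called and 1 had at least 2. In the latter, part of the imprinted Dlk1-Dio3 region on chromosome 12, Mir337 was higher and Mir665 lower, while Mir673, Mir493, Mir540, Mir3070a and Mir3070b did not pass. In the larger neighbouring cluster, with 34 symbols from Mir379 to Mir409, only Mir496 passed and the median was 0.12. No microRNA cluster was lower throughout, while all 18 snoRNA clusters had a member called and 11 were lower throughout. Of all microRNA probe sets 2.39% were lower, against 52.5% of snoRNA probe sets, and most microRNA probe sets were dim. The contrast between the clusters follows from these shares, so it cannot show whether microRNA clusters move as units.

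MicroRNAs and their hosts are given side by side. Host genes on the same strand with a probe set were found for 200 distinct microRNA profiles in 154 genes, of which 23 were higher, 19 lower and 112 did not pass. The share called was 27.3%, against 14.7% of all probe sets and 26.2% of those above the median level. Of the 154 hosts 12 had several probe sets, which differed in call for 4, among them Dleu2. Of 10 called microRNAs with such a host, 4 had a host called the same way, and these were Mir5133, Mir3097, Mir3095 and Mir1904 with Pde4d (-0.64). Across the 200 pairs r was 0.20 and rho 0.12, given as a description. Hosts moved without their microRNAs as well. Pank1 rose by 1.99 on the log2 scale while Mir107 differed by 0.10, Pde2a fell by 1.34 while Mir139 differed by -0.10, and the brighter Dleu2 probe set fell by 0.85 (the other differed by -0.57 and did not pass) while Mir15a and Mir16-1 differed by -0.17 and -0.01.

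The microRNAs known to answer to p53 did not pass, and most of them were dim. Of a list of 31, 27 were measured, 17 of them below the median level of all probe sets, and none passed by limma, against 14.7% of all probe sets and 3.92% of microRNA probe sets. At an unadjusted p under 0.05 the number was 3. Mir34a, a direct p53 target, read 3.88 ± 0.39 (SD, n = 3) in control arrays and 3.71 ± 0.21 (SD, n = 3) with p53 R273H. Mir34b (4.44 and 4.43) and Mir34c (2.34 and 2.37) differed by under 0.05 on the log2 scale. Mir194-2 came nearest, at 4.26, 3.88 and 4.43 against 2.55, 3.06 and 3.73 (log2 difference -1.07, adjusted p = 0.0662 by limma). Its groups did not overlap, and it passed without p53 R273H array 3 (adjusted p = 0.0206) and with trended and robust variances (adjusted p = 0.0432 by limma). Mir145 (0.57) and Mir29a (0.81) read higher and did not pass. Of 5 microRNAs linked to mutant p53 none passed, and Mir155 (-0.27), Mir130b (0.26), Mir128-2 (-0.05), Mir27a (-0.04) and Mir205 (-0.13) made up the list.

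Of 19 microRNAs known from epithelial-mesenchymal transition none passed by limma, against 14.7% of all and 3.92% of microRNA probe sets, and 2 had an unadjusted p under 0.05. The miR-200 family, which in mammals keeps epithelial genes on by repressing Zeb1 and Zeb2, read 0.36 for Mir200a, 0.48 for Mir200b, -0.13 for Mir429, -0.35 for Mir200c and -0.05 for Mir141, as log2 differences that did not pass. Mir200a passed without p53 R273H array 2 (0.59, adjusted p = 0.0358 by limma). Mir222 (-0.43) and Mir221 (0.01) did not pass. The 11 let-7 genes, a family that restrains growth genes, ran from -0.34 (Mirlet7c-2) to 0.35 (Mirlet7c-1) and none passed against the same backgrounds, with 1 at an unadjusted p under 0.05. Mirlet7e passed without p53 R273H array 1 (-0.53, adjusted p = 0.0483 by limma). At these levels an absent difference cannot be told from an undetected one.

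The brightest microRNA probe sets were Mir5099 (13.44 and 13.17), Mir449b (12.02 and 11.71), Mir692-1 (12.001 and 11.75), Mir703 (10.14 and 9.98) and Mir568 (9.15 and 9.47), and none passed. Mir449b belongs to a cluster in Cdc20b that is known from multiciliated cells of airway and oviduct. Its cluster neighbours Mir449a (4.47 and 4.39) and Mir449c (2.49 and 2.56) and the host Cdc20b (4.23 and 4.43) were below the median level.

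The genes that make and use microRNAs changed in part. Of 35 measured, 6 were lower, 4 were higher and 25 did not pass (28.6% called, against 14.7% of all probe sets and 26.2% of those above the median level, where 33 of the 35 lay). Drosha, the nuclear enzyme that cuts primary microRNAs, read 8.84 ± 0.17 (SD, n = 3) in control arrays and 7.88 ± 0.06 (SD, n = 3) with p53 R273H, a difference of -0.96. Its helicase partners Ddx17 (-0.81) and Ddx5 (-0.54), through which wild-type p53 is known to bind the Drosha complex in human cells, were lower. Dcp1a (-0.61), a decapping factor, Tnrc6b (-0.50), an Argonaute partner, and Cnot1 (-0.35), the scaffold of the deadenylase complex, were the others lower. Where a gene had several probe sets the brightest was counted. The dimmer probe sets of Ddx5 (-0.18) and Cnot1 (-0.34) did not pass. Drosha, Ddx17 and Tnrc6b are on chromosome 15 and Dcp1a is on chromosome 14. The other probe sets above the median level there had median differences of -0.40 and -0.26, and their part in these falls was not tested. Dgcr8 (-0.30), Xpo5 (-0.12), Dicer1 (0.14) and the Argonaute gene Eif2c2 (-0.22) did not pass, nor did Hnrnpa1, the brightest of the list (12.9 and 12.6).

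The largest change of the list was that of Zcchc11 (Tut4), a uridylyltransferase that tails let-7 precursors. It rose from 3.75 ± 0.31 (SD, n = 3) in control arrays to 6.77 ± 0.22 (SD, n = 3) with p53 R273H, a log2 difference of 3.02 (adjusted p = 0.000174 by limma). Lin28a (0.17) and Lin28b (0.04), which recruit it to let-7 precursors, did not pass. Ran (0.75), the GTPase of nuclear export and a chromosome 5 gene, Eif2c4 (0.48) and Mov10 (0.43) were higher. The number higher was 1 without empty vector array 1 or array 2, and 2 without empty vector array 3, p53 R273H array 1 or p53 R273H array 3. The number lower was 3 without empty vector array 2.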

How the data were processed

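The 6 arrays were grouped by the source labels. Per the labels' protocols, RNA was isolated on RNeasy spin columns and labelled with Affymetrix WT PLUS reagents. The authors deposited log2 values for 41345 transcript clusters. Which array was used, and how its probes were summarized and normalized, the labels and headers do not say. A second table, per the file headers, holds the authors' ratio, their signed fold (a score), their p-value and a step-up version of it. On the log2 scale the deposited ratio lay within 6.64e-05 of the group difference, and symbols came from that table. By the authors' deposited step-up p-value under 0.05, 72 snoRNA transcript clusters were lower and 1 higher, and 10 microRNA transcript clusters were lower and 5 higher.

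The test was that of limma 3.58.1 (R 4.3.3; linear fits with moderated variances, two-sided, no covariate, Benjamini-Hochberg over all transcript clusters, threshold 0.05), after the procedure was tested on simulated data. RefSeq tables (GRCm38.p6) matched 715 of 727 by symbol or gene ID, and 463 microRNA transcript clusters had a mature sequence. The deposited files name no build, so coordinates are given only for RefSeq sequences. The host was the longest spanning RefSeq gene, on the same strand for microRNAs. Its transcript cluster was matched by symbol, taking the brightest of several. For snoRNAs the strand was not used, which departs from the design. Named genes were the 10 largest rises and falls among those that passed without overlap, the 5 brightest, members of clusters with 2 calls, hosts, list members and the largest changes of machinery genes. Members and lists were chosen with earlier results of these data known. Same-numbered arrays did not deviate together (r -0.04, 0.008 and 0.015), so no pairing was used. Alternatives were other normalizations, filters, variance models, a replicate block and leaving out each array.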

Additional observations from a re-analysis of the deposited data

How the results depend on the processing

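The number of snoRNAs lower, 74 as reported, ran from 65 with the replicate block to 81 with trended and robust variances, and 67 to 68 with 1 array left out, and 64 of the 74 passed under all the alternatives but the added one. Snord123 was higher (1 snoRNA) with quantile normalization, without transcript clusters under the 50th percentile of level and without variance moderation. MicroRNAs were less stable, and 6 of the 23 passed in each of these, the filters on dim transcript clusters included (Mir1199, Mir1898, Mir1949, Mir3097, Mir5133 and Mir669a-3). Of the 23, 11 lay below the median level, so the 50th percentile filter left them out and they could not pass it. Mir133a-1, Mir467e and Mir496 kept the call in each alternative in which they were tested. The number of microRNAs higher, 9 as reported, was 4 under the 30th percentile filter, 4 under the 50th, 5 without moderation and 4 with the replicate block, and 3 to 8 with 1 array left out, and the number lower, 14, was then 7 to 12. Of all transcript clusters 2887 were higher as reported, 1839 with the replicate block and 1899 to 2131 with 1 array left out. The pairing has no support from the labels or from the deviations of same-numbered arrays.

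SnoRNA hosts called lower, 10, were 18 and 19 under the 2 filters and 22 with trended and robust variances, and those higher, 4, were 7 with trended and robust variances, 7 without moderation, 2 with the replicate block and 2 to 4 with 1 array left out. SnoRNP genes lower, 9, were 4 with the replicate block and 4 to 6 with 1 array left out, and the 1 higher was 0 with the block and 0 to 1 with 1 array left out. Biogenesis genes higher, 4, were 7 without moderation, 2 with the block and 1 to 3 with 1 array left out, and those lower, 6, were 10 under the 50th percentile filter, 10 with trended and robust variances, 3 with the block and 3 to 5 with 1 array left out. Of the p53-linked microRNAs 1 was lower with trended and robust variances, and with 1 array left out 0 to 1 were higher and 0 to 1 lower. Of the EMT microRNAs 0 to 1 were then higher, and of the let-7 genes 0 to 1 lower. No result reversed its direction, and apart from the filters, which change how many are tested, the cause of these changes was not tested. Identical profiles counted once, chosen after seeing the data, gave 73 snoRNAs lower. The dim level of most microRNAs limits what can be seen.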

Other observations

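Some snoRNA entries of RefSeq fall outside the naming rule. Those with AF357 symbols, AF357341 (-0.16), AF357355 (0.12), AF357425 (-0.24) and AF357426 (-0.03), read between 2.24 and 3.76, below the median level, and did not pass by limma. Snhg8, a snoRNA host gene transcript, was lower with p53 R273H (8.99 and 7.38, a log2 difference of -1.61), while Gas5 (-0.46), Snhg3 (-0.39) and Snhg6 (-0.06) did not pass.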
